A study of Mus musculus with 22 samples.

Results

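Fatty acid oxidation and its control by PPAR receptors were followed in mouse pancreas through 9 genes: Cpt1a, Cpt2, Acadvl, Acadl, Acadm, Ppargc1a, Pdk4, Angptl4 and Plin2. TempO-Seq measured them, by ligating probe pairs on each RNA and sequencing the products. The genes were chosen by their place in the pathway and by their levels in the 2 types of library described below. All probes carrying one of these symbols were taken, which gave 15 of the 30146 probes of the table and 9 of its 21450 symbols. Relative to the bulk of the transcriptome, Angptl4, Plin2 and Acadl were lower in every library of adult type than in any library of newborn type. Ppargc1a had the highest ratio among the members on that scale, although its 2 sets of libraries overlapped. No member passed the test for the TCDD label.

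Whole pancreas came from C57Bl/6 mothers (dams) and from their newborn pups on the day of birth. Dams carried the label TCDD (a dioxin and ligand of the aryl hydrocarbon receptor, 20 ng/kg per day) or control (corn oil, the vehicle). Injections were subcutaneous, 2 times per week, began before mating and went on to birth, and pups were exposed through the dam. By the labels there were 4 TCDD dams, 4 female and 4 male pups of TCDD dams, 4 control dams, and 3 female and 3 male pups of control dams. The labels name no transgene or deleted gene in any group.

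The stage genes did not follow the stage labels, so the libraries were sorted by 2 genes of known timing. Afp encodes alpha-fetoprotein of fetal liver and yolk sac, and Pnlip encodes the pancreatic lipase of mature acinar cells. A library was called newborn type where Afp counts exceeded Pnlip counts and adult type otherwise. Adult-type libraries held 0 to 0.772 CPM (counts scaled to a library total of 1000000) of Afp and 20540 to 26050 CPM of Pnlip. Newborn-type libraries held 242.1 to 850.2 CPM of Afp and 14.6 to 50.03 CPM of Pnlip, so no library lay near the boundary. There were 8 adult-type libraries, 6 labelled TCDD and 2 labelled control, and 14 newborn-type libraries, 6 labelled TCDD and 8 labelled control. Adult type held TCDD dams 8 and 11, TCDD female pup 6, TCDD male pups 8, 10 and 11, and control dams 5 and 7. Of the 22 libraries, 14 matched their stage label, and 9 matched both their stage label and the sex label by Y-linked genes. Libraries are therefore named below by their label, which is not taken as the identity of the tissue.

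Library totals were 14068304 to 19148777 counts in adult type and 11223816 to 34911410 in newborn type, and 3 counts corresponded to 0.157 to 0.213 CPM in adult type and 0.0859 to 0.267 CPM in newborn type. The 20 most abundant probes took 63.0 to 69.7% of counts in adult type and 45.7 to 58.5% in newborn type. CPM is a share of the total, and over 17676 probes that passed a low-count filter the median log2 ratio of adult type to newborn type was -1.95 in CPM. It was -0.09 after TMM scaling, which divides CPM by a factor that aligns the bulk of probes. Each member is given below on both scales, and "scaled CPM" means CPM after TMM. These ratios compare the libraries that were used to define the types, so they are descriptions and carry no test. Since tissue was bulk, fewer cells of a type and less RNA per cell cannot be told apart.

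Mitochondria burn long-chain fatty acids after these cross the inner membrane as carnitine esters, a route that needs CPT1 and CPT2. Acyl-CoA dehydrogenases then take the first oxidative step of each turn of beta-oxidation, with enzymes for very long, long and medium chains. PPARalpha and its relatives, bound by fatty acids, pair with RXR on direct repeats of AGGTCA and raise these genes in liver, heart and muscle during fasting and around birth, when milk fat becomes the main fuel; PGC-1alpha, the product of Ppargc1a, is a coactivator of them. Pdk4, Angptl4 and Plin2 are widely used as sensitive readouts of PPAR activity.

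The promoters of Plin2, Acadl and Ppargc1a are printed because these genes lay farthest from the median of all probes among the members with an entry. RefSeq windows (GRCm38.p6, 250 bases before to 50 bases after the start) were found for 8 of the 9 members, and Angptl4 had no entry. The Plin2, Acadl and Ppargc1a windows lie at chr4:86670010-86670309, chr1:66863260-66863559 and chr5:51567676-51567975, all on the minus strand, and are written 5′ to 3′ along the gene. Capitals mark a match, with at most 2 mismatches on either strand, to the direct repeat AGGTCANAGGTCA that PPAR and RXR bind.
Plin2: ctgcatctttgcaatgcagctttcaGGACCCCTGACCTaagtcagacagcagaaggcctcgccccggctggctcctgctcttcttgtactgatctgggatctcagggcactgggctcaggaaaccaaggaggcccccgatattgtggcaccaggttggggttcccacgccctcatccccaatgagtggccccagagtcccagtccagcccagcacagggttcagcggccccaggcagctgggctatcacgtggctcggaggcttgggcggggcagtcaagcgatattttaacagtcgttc
Acadl: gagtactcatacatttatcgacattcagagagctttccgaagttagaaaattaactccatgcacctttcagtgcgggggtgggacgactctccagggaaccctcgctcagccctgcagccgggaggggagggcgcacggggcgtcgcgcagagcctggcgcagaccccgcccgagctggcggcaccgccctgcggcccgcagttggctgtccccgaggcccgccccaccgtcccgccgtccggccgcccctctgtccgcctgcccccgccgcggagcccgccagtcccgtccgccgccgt
Ppargc1a: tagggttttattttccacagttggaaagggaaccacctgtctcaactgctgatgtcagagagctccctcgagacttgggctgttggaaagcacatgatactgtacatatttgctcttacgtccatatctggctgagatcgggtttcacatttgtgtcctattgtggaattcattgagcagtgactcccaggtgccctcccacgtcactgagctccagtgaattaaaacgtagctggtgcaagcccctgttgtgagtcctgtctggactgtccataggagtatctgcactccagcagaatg
The Plin2 match covered bases 26 to 38 of its window, read on the opposite strand, with 2 mismatches. It was the only such match among the 8 windows, while 3.86% of 32851 RefSeq promoters held one. The single half-site AGGTCA, on either strand, was present in 4 of the 8 windows (Cpt1a, Acadvl, Acadm and Plin2) and in 16.3% of all promoters; the half-site of Plin2 lies within its direct repeat. The Acadl and Ppargc1a windows held neither motif.

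**Figure D1:**
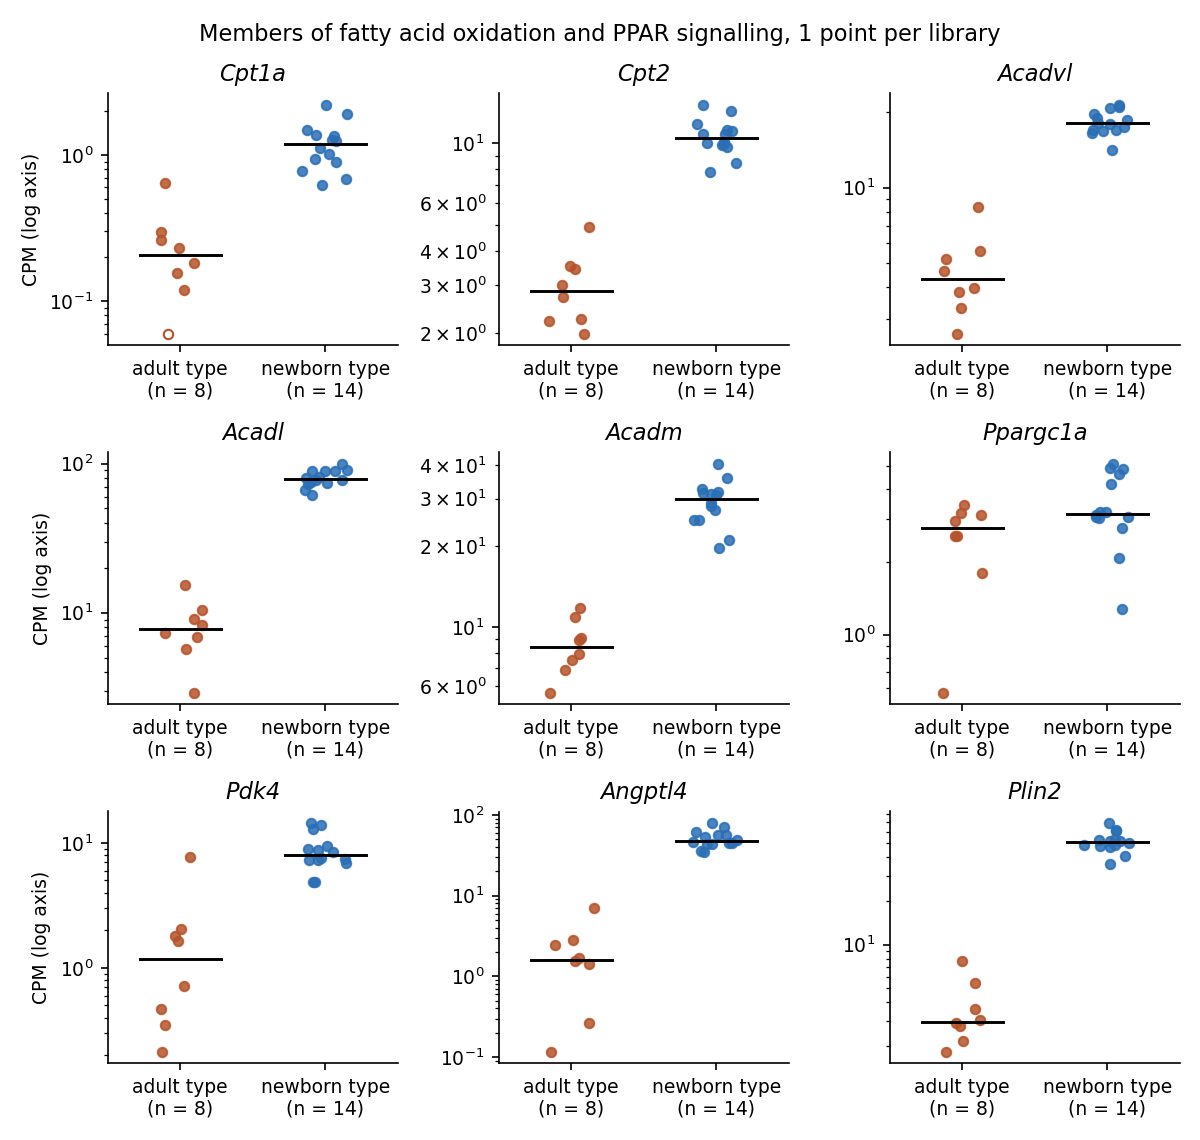
CPM on a log axis for the highest probe of each member, with adult-type libraries (n = 8) left of newborn-type libraries (n = 14), 1 point per library and a bar at the median. The single open point is a Cpt1a count of 0, drawn at the foot of the axis. Ppargc1a, Pdk4 and Cpt1a overlap between the types, and the other 6 genes do not.

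Cpt1a, the liver isoform of the gate-keeping carnitine palmitoyltransferase, was near the detection limit. It had a lowest value of 0, a median of 0.208 and a highest value of 0.640 CPM in adult type, against 0.624, 1.18 and 2.19 CPM in newborn type. Adult-type counts were 0 to 10 per library, so the log2 ratio of -2.35 in CPM, or -0.44 scaled, rests on few reads. Cpt2, the enzyme on the matrix side, had 1.98, 2.85 and 4.89 CPM in adult type (lowest, median, highest), against 7.82, 10.4 and 13.8 CPM in newborn type. The types did not overlap in CPM, with a log2 ratio of -1.82, but the scaled ratio turned to 0.07 and the scaled ranges overlapped. Both genes lay within the middle 50% of all probes.

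The 3 acyl-CoA dehydrogenases had unlike ratios. Acadvl, for very long chains, had 2.61, 4.31 and 8.38 CPM in adult type, against 14.1, 18.1 and 21.4 CPM in newborn type. Its log2 ratio of -1.96 in CPM was close to the median of all probes, and the scaled ratio was -0.12 with overlapping ranges. Acadm, for medium chains, had 5.69, 8.42 and 11.7 CPM in adult type, against 19.7, 29.95 and 40.4 CPM in newborn type. Its log2 ratio was -1.77 in CPM and turned to 0.15 when scaled, and its 2 other probes gave scaled ratios of 0.24 and 0.05.
Acadl, for long chains, stood apart from both. It had 2.91, 7.81 and 15.3 CPM in adult type, against 61.95, 79.0 and 99.4 CPM in newborn type. Even the highest adult-type library lay far below the lowest newborn-type library, and the log2 ratio was -3.29 in CPM. Scaled levels were 18.5 ± 6.75 in adult type and 50.03 ± 5.40 in newborn type (SD, n = 8 and n = 14), a 2.70-fold lower mean with no overlap. A second, weaker Acadl probe gave a scaled log2 ratio of -1.47, close to the -1.43 of the first, although its ranges overlapped.

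Ppargc1a, the coactivator, had the CPM ratio nearest to 0 among the members. It had 0.574, 2.75 and 3.43 CPM in adult type, against 1.28, 3.16 and 5.08 CPM in newborn type. The log2 ratio was -0.46 in CPM, higher than that of 95.6% of the probes tested, and the scaled ratio turned to 1.39. Scaled levels were 5.70 ± 2.166 in adult type and 2.169 ± 0.786 in newborn type (SD, n = 8 and n = 14), yet the ranges overlapped because the library labelled TCDD male pup 11 was low in adult type.

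Among the PPAR readouts, Pdk4 encodes a kinase that shuts off pyruvate dehydrogenase and so spares glucose when fat is burned. In adult type it had 1.65 and 1.78 CPM in TCDD dams 8 and 11, 7.67 CPM in TCDD female pup 6, and 0.349, 2.05 and 0.470 CPM in TCDD male pups 8, 10 and 11. Control dams 5 and 7 of adult type had 0.716 and 0.213 CPM. One library, TCDD female pup 6, thus reached the newborn-type range of 4.84 to 14.4 CPM (median 7.97), and the other 7 stayed under it in CPM. In scaled CPM, 4 of the 8 lay at or above the lowest newborn-type value of 3.105, with 4.10 in TCDD dam 8, 4.495 in TCDD dam 11, 4.74 in TCDD male pup 10 and 13.2 in TCDD female pup 6, the last above the highest newborn-type value of 9.31. The log2 ratio of means was -2.23 in CPM and -0.49 scaled, and the types overlapped on both scales.
Angptl4 encodes a secreted inhibitor of lipoprotein lipase. In adult type it had 6.97 and 2.44 CPM in TCDD dams 8 and 11, 2.83 CPM in TCDD female pup 6, and 0.116, 1.535 and 0.261 CPM in TCDD male pups 8, 10 and 11. Control dams 5 and 7 of adult type had 1.69 and 1.42 CPM, and the newborn-type range was 34.5 to 79.6 CPM (median 47.3). No adult-type library came near that range in CPM; in scaled CPM the highest adult-type value was 17.3 and the lowest newborn-type value 22.6. The log2 ratio of -4.58 in CPM was the lowest among the 9 genes, and scaled levels of 4.95 ± 5.37 in adult type and 31.9 ± 6.53 in newborn type (SD, n = 8 and n = 14) gave a log2 ratio of -2.69.
Plin2 encodes the protein that coats lipid droplets in most cells. It had 1.83, 2.94 and 7.77 CPM in adult type, against 36.3, 50.96 and 69.2 CPM in newborn type. The ranges were far apart in CPM, while in scaled CPM the highest adult-type value was 19.3 and the lowest newborn-type value 23.4. The log2 ratio was -3.81 in CPM and -1.92 scaled. A second Plin2 probe gave a scaled ratio of -1.99 without overlap, and the weakest, with at most 1 count in any adult-type library, did not pass the low-count filter.

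**Figure D2:**
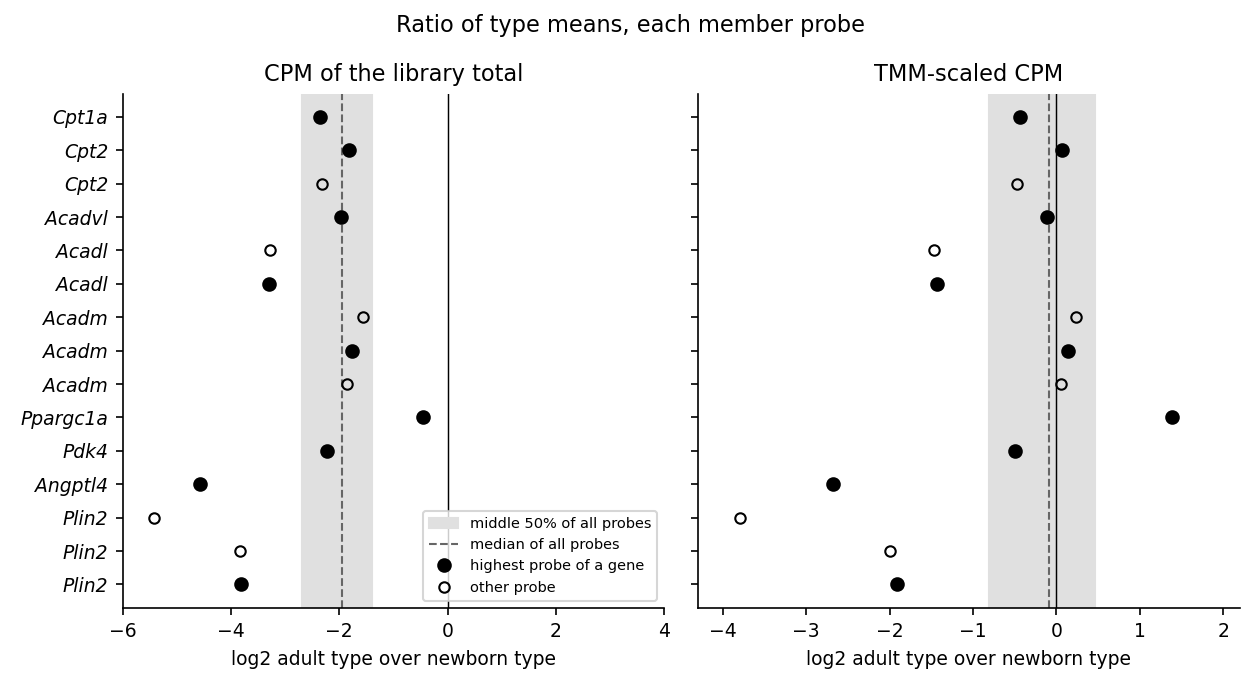
Log2 ratio of adult-type to newborn-type means for each of the 15 member probes, in CPM (left) and in TMM-scaled CPM (right). Filled points are the highest probe of a gene, open points other probes, the dashed line the median of all 17676 probes and the grey band their middle 50%. Angptl4, Plin2 and Acadl lie below the band on both scales and Ppargc1a above it.

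By gene, adult type lay below newborn type in every library for 6 of 9 members in CPM, where 64.9% of all probes did so, and for 3 of 9 in scaled CPM, where 11.2% did so. None of the 9 lay above newborn type in every library in scaled CPM, against 8.18% of all probes. Of the 15 probes, 10 lay below in CPM and 4 in scaled CPM, and 14 passed the filter. The median log2 ratio over the 9 genes was -2.23 in CPM and -0.44 scaled, beside -1.95 and -0.09 over all probes. Nothing about the members is read from these shares, since the types were part of how they were chosen.

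**Figure D3:**
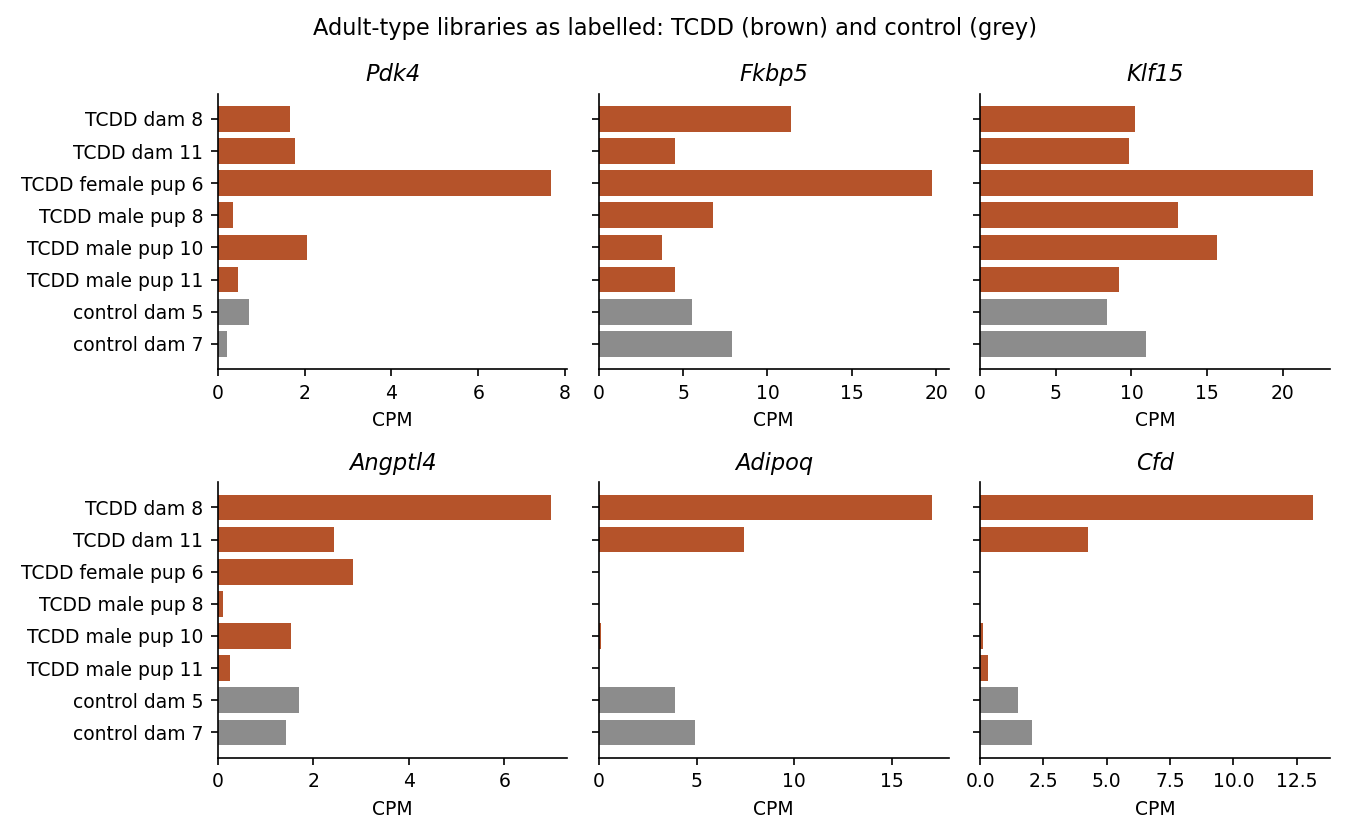
CPM in each of the 8 adult-type libraries, named by label, with TCDD in brown above control in grey. Pdk4, Fkbp5 and Klf15 are highest in TCDD female pup 6, and Angptl4, Adipoq and Cfd in TCDD dam 8.

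Within adult type every member but Cpt1a varied more than the median probe of like count, the PPAR readouts most. The coefficient of variation of scaled CPM over the 8 libraries was 107.7% for Pdk4, 108.4% for Angptl4 and 56.65% for Plin2, while probes within 1.5-fold of their counts had medians of 33.1%, 31.35% and 25.4%. Acadl varied by 36.4%, beside 19.5% for probes of like count, and Acadvl and Acadm by 27.1% and 27.8%, beside 23.4% and 19.3%. Ppargc1a and Cpt2 varied by 38.0% and 35.4%, beside 29.4% and 27.4%, and Cpt1a by 77.7%, beside 83.0%. The readouts and Ppargc1a also varied more than probes of like count in newborn type. Pdk4 had 31.4% there, Angptl4 20.5% and Plin2 15.0%, beside 17.8%, 11.3% and 11.3%, while Acadl had 10.8% beside 10.9%. Ppargc1a had 36.3%, beside 24.7%, and the remaining members stayed below the median of probes of like count. The library with the most Pdk4, TCDD female pup 6, also had the most Fkbp5 and Klf15, both induced by glucocorticoids, at 19.8 and 22.01 CPM, against highest values of 11.4 and 15.7 CPM in the other 7. In scaled CPM the gap was smaller, with 33.99 against at most 28.2 for Fkbp5 and 37.9 against at most 36.3 for Klf15; this library had the highest TMM factor of adult type, 0.581. Of the 11 fasting and glucocorticoid genes that passed the filter, 7 were highest there in CPM and 6 in scaled CPM, while Sgk1 and Ddit4 were among those highest elsewhere. The share of all probes that were highest in this library was not counted. Its CPM sums were also the highest of adult type for other beta-oxidation, ketone body, PPAR receptor and coregulator, and other PPAR target genes. The same held for general mitochondrial, peroxisomal, and PDK and PDP genes, but not for uptake, lipolysis, angiopoietin-like or malonyl-CoA genes. These sums were taken in CPM only, without scaling. The part of a fasting or glucocorticoid response in the Pdk4 value was not tested.
The library with the most Angptl4, TCDD dam 8, had the highest sum of white adipocyte genes. Of these, Lep and Pparg were at 0 there and highest in TCDD dam 11 (0.416 CPM) and control dam 5 (0.456 CPM). The summed level of 8 adipocyte markers was 5.29 to 74.2 CPM in adult type, highest in TCDD dam 8, and 19.1 to 33.9 CPM in newborn type. The newborn-type sum was nearly all Fabp4, which capillary endothelium also expresses (17.9 to 32.6 CPM); Adipoq averaged 0.0406, Plin1 0.0252, Retn 0.0262 and Cfd 0.0862 CPM there, and 6 of the 8 markers did not pass the filter. Adiponectin (Adipoq) had 17.1 CPM in TCDD dam 8 and 3.91 to 7.43 CPM in the other 3 adult-type libraries labelled dam, but only 0 to 0.128 CPM in the 4 labelled pup. Angptl4 and Plin2 are also adipocyte genes, and the highest probe of each had its top adult-type value in TCDD dam 8. The second Plin2 probe was highest in control dam 7, at 1.99 CPM. The part of fat in the spread within adult type was not tested.

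Hepatocyte genes differed between the types as well. The summed level of 8 hepatocyte markers, all 8 of which passed the filter, was 3.20 to 16.5 CPM in adult type and 648.4 to 1972 CPM in newborn type. Afp is 1 of the 8, so part of this difference was set by the rule that sorted the libraries. Macrophage markers summed to 4.13 to 29.0 CPM in adult type and 49.0 to 84.98 CPM in newborn type, and endothelial markers to 6.06 to 19.1 CPM in adult type and 42.4 to 88.9 CPM in newborn type. Beta cell markers summed to 75.5 to 287.5 CPM in adult type and 877.3 to 1829 CPM in newborn type. In scaled CPM 0 of 5 macrophage, 1 of 5 endothelial and 4 of 5 beta cell markers lay below newborn type in every library. Of the hepatocyte markers 7 of 8 did so, Afp among them. Acinar markers, which define the labelled tissue and include the sorting gene Pnlip, summed to 144400 to 165100 CPM in adult type and 71710 to 93760 CPM in newborn type. Across the 14 newborn-type libraries no relation of a member to the hepatocyte sum passed its test. The highest r was that of Plin2, with a Pearson r of 0.48 (permutation p = 0.0822) and a Spearman rho of 0.42 (permutation p = 0.138), and r was 0.58 without the 2 libraries farthest from the median; its permutation p adjusted over the 9 relations was 0.443. Acadvl had r = 0.46 (permutation p = 0.0985) and rho = 0.37 (permutation p = 0.196), with r of 0.47 without the 2 farthest and the same adjusted p. These relations were added after the data were seen, and the part of liver RNA in the difference between types was not tested.

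**Figure D4:**
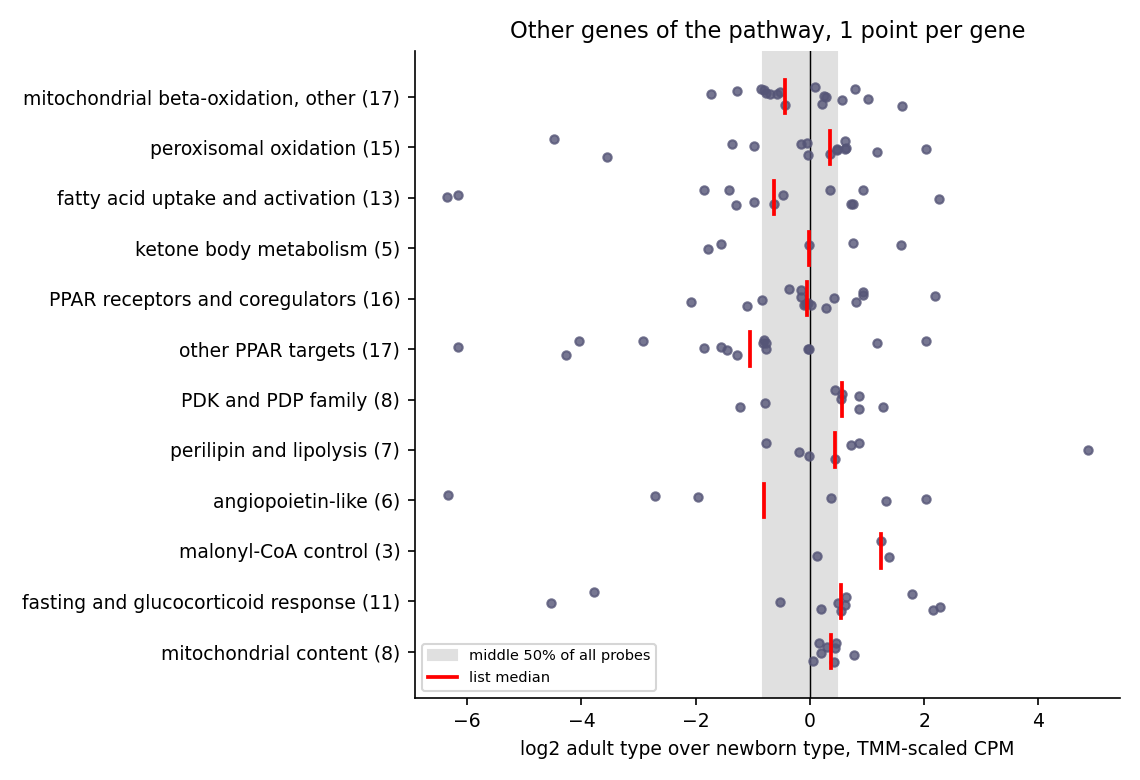
Scaled log2 ratio of adult type to newborn type for other genes of the pathway, 1 point per gene that passed the filter (number in brackets), with the list median in red and the middle 50% of all probes in grey. Cyp4a14, at 0 in all adult-type libraries, is not drawn. Lists of mitochondrial content, PDK and PDP genes have medians of 0.37 and 0.55, and other PPAR targets of -1.05.

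The rest of beta-oxidation was mixed too. Of 17 other mitochondrial genes that passed the filter, in scaled CPM 5 had every adult-type library below every newborn-type library, 3 had every one above and 9 overlapped, beside 11.2% of all probes below and 8.18% above. Their median scaled log2 ratio was -0.43. The trifunctional protein was among those below: Hadha averaged 15.4 CPM in adult type and 96.55 CPM in newborn type, with a scaled log2 ratio of -0.80, and its partner Hadhb had -0.70. Acaa2 and Hadh, the thiolase and the hydroxyacyl dehydrogenase, had scaled ratios of -0.86 and -0.57. These genes were named for their CPM ratios, a rule that favours low ones. The 3 genes above, named after their values were seen, were Acadsb, the short branched-chain acyl-CoA dehydrogenase, with a scaled ratio of 1.60, Etfa, a subunit of the electron acceptor of these enzymes, with 0.79, and the enoyl-CoA isomerase Eci1 with 0.56. Of general mitochondrial genes, 0 of 8 lay below and 1 above, with a median of 0.37; citrate synthase (Cs) had a ratio of 0.15.
Other known PPAR targets spread widely. Of 17, 6 lay below, 2 above and 9 overlapped, with a median scaled ratio of -1.05, or -1.28 with Cyp4a14 at its limit. Cyp4a14, a fatty acid hydroxylase, was at 0 in all 8 adult-type libraries and at least 5.05-fold lower in scaled CPM, taking 3 counts per library as its level. The averages from here through the uptake genes are in CPM, where all probes had a median log2 ratio of -1.95. They cannot be set beside the scaled ratios. Fabp1, the liver fatty acid binding protein, averaged 0.579 CPM in adult type and 145.4 CPM in newborn type. Creb3l3, a fasting regulator of liver and gut, averaged 0.775 CPM in adult type and 19.9 CPM in newborn type. Acot1, an acyl-CoA thioesterase whose probe may also read the near-identical Acot2, averaged 0.849 CPM in adult type and 50.4 CPM in newborn type.
Among uptake and activation genes, 4 of 13 lay below and 1 above, with a median of -0.63. Slc27a2, a liver and kidney fatty acid transporter, averaged 0.0393 CPM in adult type and 12.5 CPM in newborn type, and Fabp5, of epithelia and macrophages, 45.7 CPM in adult type and 418.9 CPM in newborn type. Fabp1, Slc27a2 and Creb3l3 are liver genes in large part, and the part of liver RNA in their values was not tested.
Peroxisomal genes had 2 of 15 below and 2 above (median 0.35), with Crot, which exports peroxisomal products as carnitine esters, at -1.36. The 2 above, named after their values were seen, were Ehhadh, the bifunctional enzyme of that route, at 1.17 and Pex11a, a factor of peroxisome division, at 2.03. Ketone genes had 1 of 5 below and 1 above (median -0.02): Bdh1, which makes 3-hydroxybutyrate, had -1.78, and Oxct1, which burns ketone bodies outside the liver, had 1.60. Receptors and coregulators had 1 of 16 below and 2 above (median -0.05), with RXRalpha (Rxra) at 0.92. Of the kinases, phosphatases and subunits around pyruvate dehydrogenase 0 of 8 lay below and 2 above (median 0.55), with Pdk1 at 0.87 and Pdk3 at -0.79.
Perilipin and lipolysis genes had 0 of 7 below and 2 above (median 0.45), with Abhd5, the activator of adipose triglyceride lipase, at 0.85 and Plin3, another droplet coat protein, at -0.20. Fasting and glucocorticoid genes had 1 of 11 below and 2 above (median 0.55), with Klf15 at 2.15. Angiopoietin-like genes had 2 of 6 below and 2 above (median -0.80), and the 3 genes of malonyl-CoA control, which sets the brake on CPT1, all overlapped (median 1.24).

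Over 36 pairs of members the median Pearson r of log2(CPM + 1) was 0.43 in the 8 adult-type libraries and 0.32 in the 14 newborn-type libraries. After scaling it was 0.35 in adult type and 0.09 in newborn type. Of the 36 pairs, 2 passed in newborn type by permutation test with Benjamini-Hochberg adjustment. Angptl4 and Plin2 had r = 0.80 (permutation p = 0.00088, adjusted 0.0286) and rho = 0.74 (permutation p = 0.00341, adjusted 0.0732), and Acadvl and Plin2 had r = 0.77 (permutation p = 0.00159, adjusted 0.0286) and rho = 0.68 (permutation p = 0.00916, adjusted 0.0792). Without the 2 farthest libraries r was 0.62 for Angptl4 and Plin2 and 0.55 for Acadvl and Plin2, and neither passed (adjusted permutation p = 0.392 for both). Fewer libraries and a narrower range also weaken the test, so this loss does not show that the calls rest on those libraries. After scaling r was 0.69 for Angptl4 and Plin2 and 0.73 for Acadvl and Plin2, with an adjusted permutation p of 0.1085 for both. In the 8 adult-type libraries Cpt2 with Angptl4 (r = 0.94, exact permutation p = 0.000397, adjusted 0.0143; rho = 0.95, exact permutation p = 0.00114, adjusted 0.0411) and Acadvl with Pdk4 (r = 0.91, exact permutation p = 0.00251, adjusted 0.0451; rho = 0.76, exact permutation p = 0.0368, adjusted 0.331) passed. After scaling r was 0.81 for Cpt2 with Angptl4 (adjusted exact permutation p = 0.173) and 0.92 for Acadvl with Pdk4 (adjusted exact permutation p = 0.0545), so neither passed. Without the 2 farthest libraries r was 0.81 for Cpt2 with Angptl4 and 0.86 for Acadvl with Pdk4, and neither passed. With so few libraries left, the exact permutation test over 36 pairs could scarcely pass at any r. Nothing is therefore drawn from that failure.
Among 6731 probes of at least 10 CPM, those most like Pdk4 over the 14 newborn-type libraries were Btbd1 (r = 0.91), Acsl1 (r = 0.89) and Gnmt (r = 0.88). Acsl1 is an acyl-CoA synthetase and Gnmt a liver methyltransferase. Those most like Angptl4 were Gimap6, C1s1 and Tifa (r = 0.88, 0.87 and 0.87), and those most like Ppargc1a were Ddx49, Timm29 and Ufl1 (r = 0.81, 0.81 and 0.79). For Cpt1a they were Retreg1, Togaram1 and Ralgps2 (r = 0.89 for each). These are the highest of many values, in libraries that share depth and composition.

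The study asked what exposure of the mother does to the pancreas of dam and pup. Within either type the TCDD and control ranges of all 9 members overlapped. Pdk4 in newborn type had a lowest value of 6.87, a median of 9.13 and a highest value of 13.9 CPM in the 6 TCDD libraries, against 4.84, 7.49 and 14.4 CPM in the 8 control libraries. Angptl4 there had 34.5, 54.8 and 79.6 CPM in TCDD libraries, against 35.7, 45.7 and 61.5 CPM in control libraries. Acadl had 74.5, 89.4 and 99.4 CPM in TCDD libraries, against 61.95, 76.2 and 81.3 CPM in control libraries. Its log2 fold change of 0.11 ± 0.09 (SE) had the smallest unadjusted p among the members in newborn type, 0.233 by edgeR.

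With all 22 libraries and the type as a term, edgeR's quasi-likelihood test called 0 of 17676 probes (0%), 360 having an unadjusted p under 0.05, and none of the 14 member probes. Log2 fold changes of TCDD over control (± SE) ran from -0.10 ± 0.23 for Ppargc1a to 0.47 ± 0.32 for Pdk4, with an adjusted p of 1 for both. Angptl4 had 0.18 ± 0.27, Acadl 0.17 ± 0.14, Acadm 0.14 ± 0.12 and Plin2 -0.01 ± 0.17. These errors leave room for effects of either sign, and they take the TCDD and control labels as given. Only 9 of the 22 libraries matched both their stage label and their sex label, and whether the TCDD label follows the tissue was not tested.
The same test called 0% of probes in newborn type (17109 tested, 554 with an unadjusted p under 0.05), in adult type (13513 and 388), in the difference between types (19209 and 1523), in dams (15594 and 150), in female pups (17513 and 299) and in male pups (16176 and 2703). No member was called in any of them. The fits of dams, female pups and male pups held no term for type. Under each label the dams were 2 adult-type and 2 newborn-type libraries, and TCDD female pups were 1 and 3. The difference between types thus added to the spread in those fits, and no absence of an effect is read from their 0%. In adult type Pdk4 had a log2 fold change of 2.22 ± 0.94 for 6 TCDD over 2 control libraries (unadjusted p = 0.0321 and adjusted p = 1 by edgeR), and Cpt1a did not pass the filter. Without TCDD female pup 6 that Pdk4 value was 1.56 ± 0.78, and it was 3.52 ± 1.44 without control dam 5 and 1.51 ± 1.13 without control dam 7. The difference between the types was 2.13 ± 0.84 for Pdk4 (edgeR adjusted p = 0.515).
In the libraries labelled male pup the label and the type run together. Of the 4 TCDD male pups 3 are adult type, and all 3 control male pups are newborn type. There Ppargc1a had a log2 fold change of 1.43 ± 0.59, Acadl -1.09 ± 0.46, Plin2 -1.37 ± 0.57 and Angptl4 -2.09 ± 1.04, with adjusted p of 0.287 to 0.332 by edgeR. Without TCDD male pup 6, the newborn-type TCDD library, all 4 of these genes were called (Ppargc1a 1.60, Acadl -1.54, Plin2 -2.34 and Angptl4 -4.43), in a comparison where type and label cannot be told apart. That fit called 6451 of the 15379 probes tested, so the calls are not particular to these genes.

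**Figure D5:**
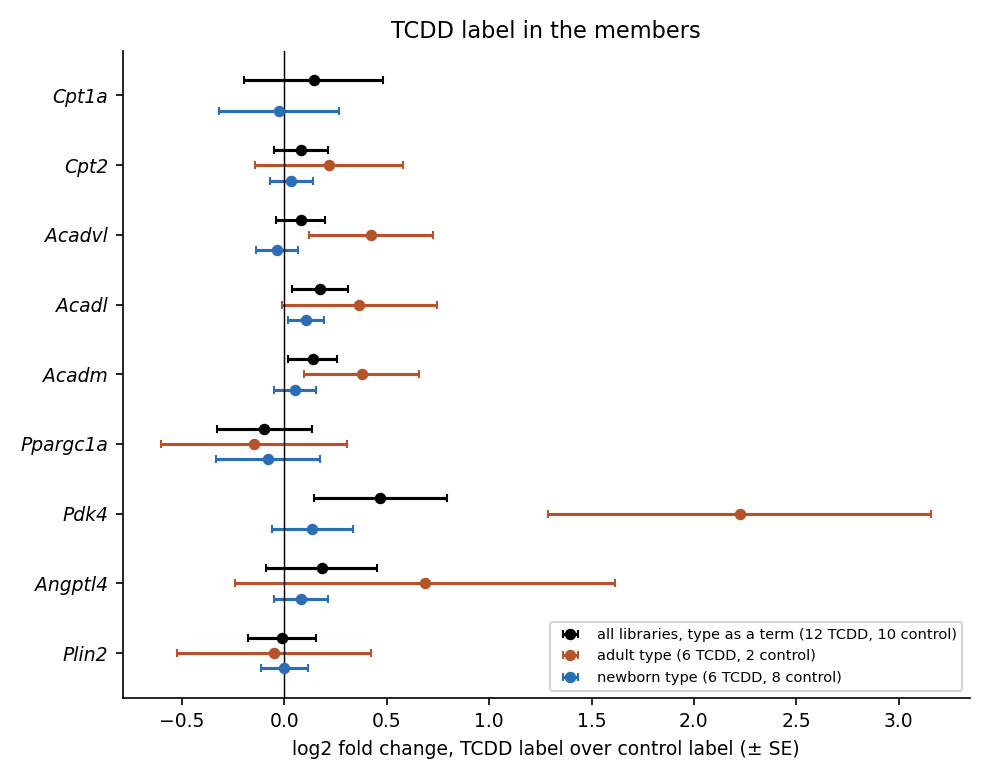
Log2 fold change of the TCDD label over the control label for each member, with ± SE, from all 22 libraries with type as a term (black), adult type (brown, 6 TCDD and 2 control) and newborn type (blue, 6 TCDD and 8 control). Cpt1a was not tested in adult type. All values but that of Pdk4 in adult type, at 2.22, lie between -0.15 and 0.69.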

How the data were processed

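The values are whole-number counts for 30146 TempO-Seq probes in 22 libraries, which the authors deposited without normalization. The panel was the mouse whole transcriptome panel, per the labels' protocols. The submitters' processing notes name bcl2fastq 2.17.1.14; for alignment, the tool and genome build were not given in the sources used here. Counts are reads, since no source describes molecular identifiers, and limits from 3 counts cover counting error only. Probes differ in efficiency, so levels are not compared between genes.

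The members and lists were chosen with earlier results of these data known. Tests used R 4.3.3 and edgeR 4.0.16 (filterByExpr, TMM, glmQLFit, glmQLFTest, Benjamini-Hochberg over all probes, threshold 0.05), with 1 probe per gene, that of highest mean count. limma 3.58.1 and DESeq2 1.42.0 served as alternatives. Replicates are separate animals, and of 30 pairs of libraries within a group the closest differed by more than sampling noise (chi-square per degree of freedom 7.47). The labels' number marks a dam and its litter. In newborn type, 9 pairs of libraries with 1 number had a median correlation of deviations of -0.13 and 82 other pairs -0.07. On simulated counts for the fit of all libraries (17247 probes, 200 changed by log2 1.5) all changed probes were recovered, with 5.66% false calls. The changed probes were drawn only from those of higher count. Their change was larger than any member value in that fit, of which 0.47 for Pdk4 was the highest. Recovery of smaller changes, or in probes of low count such as that of Cpt1a, was not measured. Correlations used log2(CPM + 1) and 100000 permutations in newborn type or all in adult type.

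Named list genes were up to 4 per list with the largest log2 ratio between types, at 10 CPM or more in the higher type, of which some are not reported here; the 3 most correlated genes are named for Pdk4, Angptl4, Ppargc1a and Cpt1a. The single libraries and markers named for the spread within adult type were chosen after their values were seen.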

Additional observations from a re-analysis of the deposited data

Results flagged for a closer look

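Among 15 member probes, 5 had 1 adult-type library farther from the others than Dixon's criterion allows for 8 samples; chance gives about 1 in 20. Pdk4 reached 7.67 CPM in TCDD female pup 6, the next library having 2.05. The weaker Acadm probe reached 5.07 CPM in the same library, the next having 1.95. Angptl4 reached 6.97 CPM in TCDD dam 8, the next having 2.83. Cpt1a reached 0.640 CPM in TCDD male pup 10, the next having 0.295. The weakest Plin2 probe had 0.0711 CPM, a single count, in control dam 7 and 0 in the other 7 libraries, a pattern that always meets the criterion; among the 14 probes with counts in more than 1 adult-type library, 4 met it.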

How the results depend on the processing

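For the TCDD label, 67 of 75 alternative counts of called probes stayed at 0, the main value. Adult type gave 112 calls without the low-count filter (Pdk4 among them, log2 2.21) and 0 to 2 when each replicate was left out (2 without control dam 5). The difference between types gave 6 with library totals, 9 without the filter and 23 with DESeq2. Library totals moved the median log2 fold change of all probes to -1.03 in male pups, -0.24 in the difference between types, 0.155 in newborn type, -0.14 in female pups and -0.11 in adult type. Male pups gave 505 with DESeq2 and 0 to 6451 when each replicate was left out (6451 without TCDD male pup 6). Female pups gave 394 when restricted to libraries that match their labels, an alternative chosen after seeing the data that sets 2 TCDD libraries against 1 control library, assumed to vary like the others; Pdk4 was called there (log2 -0.97). The paired analysis, with litter number as a random effect (replicate block), gave 0 calls in each of the 4 fits that held it and changed no call. Male pups could not be restricted to matching libraries. Of 72 alternative member values over all libraries 4 changed sign: with library totals Ppargc1a was 0.0098 and Plin2 0.066, and in matching libraries Cpt1a was -0.12 and Plin2 0.24.

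Between types, 6 members lay below newborn type in CPM and 3 with TMM or RLE size factors. Of 63 alternative ratios, 42 moved by less than the spread, 14 by more and 7 changed sign: Cpt2 to 0.073 (TMM) and 0.031 (RLE), Acadm to 0.15 and 0.10, Ppargc1a to 1.39, 1.35 and, without the 20 most abundant probes, 0.15. The correlations that passed, 2 pairs in each type, were 0 after scaling and 0 without the 2 farthest libraries. In adult type the latter setting left too few libraries for the test to have much prospect of passing. Depth limits Cpt1a, with at most 10 counts per adult-type library.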
